A study of Callithrix jacchus with 39 samples.

Results

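The comparison described here is the first step of blastocyst formation in the common marmoset, Callithrix jacchus: 3 RNA libraries of morula stage embryos against 3 of the inner cell mass (ICM) of the early blastocyst, which are 6 of the 39 libraries of the series. This step was chosen with earlier results of these data known, its libraries were picked out by sample title, and each library was the sum of its 2 run columns. The other libraries were 12 of the ICM of 4 later blastocyst stages (blastocyst, expanded, hatching and hatched), 3 of the postimplantation epiblast and 18 of embryonic stem cells. The stem cell libraries were not used. The labels give no treatment, genotype or age for any embryo. They do not say how the ICM was isolated, how many embryos made a library or whether libraries came from separate embryos. The p-values therefore measure the spread between libraries only, which was estimated over all 21 embryo libraries and not over the 6 compared.

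The morula is a ball of cells that compacts, polarizes and sorts outer from inner cells. Outer cells form the trophectoderm, the epithelium that pumps fluid into the cavity and later builds the placenta, and inner cells form the ICM, from which the epiblast and the primitive endoderm separate. Over the same period the embryo finishes replacing RNA laid down in the oocyte by its own, and its energy metabolism rises. The morula libraries are labelled as embryos and the early blastocyst libraries as ICM, so the step in time and the removal of outer cells cannot be told apart in any difference below.

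Total counts were 52440511 to 59037179 in the morula and 45257233 to 51767885 in the early ICM libraries. Genes with at least 10 counts numbered 12712 to 13880 in the morula and 11604 to 12526 in the early ICM, without overlap, and the part of this in the genes that fell was not tested. Pearson's r of log2 CPM (counts scaled to a fixed library total) over genes was 0.901 to 0.928 within the morula, 0.861 to 0.879 within the early ICM and 0.837 to 0.856 between them, where genes are not independent replicates. Marker genes bore the labels out in part. The 6 ICM and epiblast markers that could be matched summed to 1312 to 2092 CPM in the morula and 2051 to 3107 CPM in the early ICM, with overlap. The markers did not move together. Every early ICM library lay above the morula for NANOG and below it for KLF17 and PRDM14, and PRDM14 went from a mean of 7.47 to 1.34 CPM. The 5 matched trophectoderm markers summed to 23.5, 21.7 and 3.20 CPM in morula replicates 1, 2 and 3. In early ICM replicates 1, 2 and 3 they summed to 237, 177.8 and 5.75 CPM. Early ICM replicates 1 and 2 thus stood apart from replicate 3 by this sum, which was mostly KRT7 and GATA2. Other trophectoderm genes did not group these libraries alike. TFAP2A stood at 26.9, 0.125 and 4.28 CPM in early ICM replicates 1, 2 and 3, and GRHL1, of the longer list, at 11.4, 9.74 and 24.9 CPM. Counts below are also given from a fit with replicate 3 as the only early ICM library, where the lone library is assumed to vary like the other groups. The matched granulosa and fibroblast markers of the short marker lists summed to at most 12.5 CPM in any of the 6 libraries, with COL3A1 and DCN at no count. Other genes of the longer granulosa and fibroblast lists stood higher. CYP11A1 had 16.1 CPM and COL5A1 41.1 CPM in early ICM replicate 3, VIM had 49.4 CPM in morula replicate 1, and MMP2 had 19.8 to 58.2 CPM in the early ICM. Their part in the results was not tested.

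Values below are CPM scaled by TMM, a normalization that assumes most genes do not change, in the order of replicates 1, 2 and 3. Log2 fold changes are early ICM minus morula with their standard error, from a quasi-likelihood fit in edgeR to all 21 embryo libraries. Adjusted p-values are corrected over all 16929 genes tested, and a gene was called at an adjusted p under 0.05. Of those genes 658 rose (3.89%) and 384 fell (2.27%), 6.16% in all. A total of 999 calls (5.9% of genes tested) were at least 2-fold, and in 993 the libraries did not overlap, against 24.6% non-overlapping among all genes tested (10.8% above the morula and 13.8% below it). Among the 10978 tested genes with a symbol, from which list members come, 7.42% were called, 4.95% higher and 2.48% lower. These shares are the background for every list count below. Among genes with a mean of at least 10 CPM over the 6 libraries 7.15% rose and 3.38% fell. The median log2 fold change was 2.20 among genes that rose, -2.25 among genes that fell and 0 over all genes. Without morula replicate 1, 349 genes rose and 164 fell, and without morula replicate 2, 396 and 185. With early ICM replicate 3 as the only early ICM library 533 rose and 409 fell, and a fit of the 6 libraries without the other stages gave 114 and 99. The balance of rises and falls depended on the test: DESeq2 called 1326 genes higher and 1432 lower, 48.1% of its calls higher against 63.1% in edgeR.

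**Figure D1:**
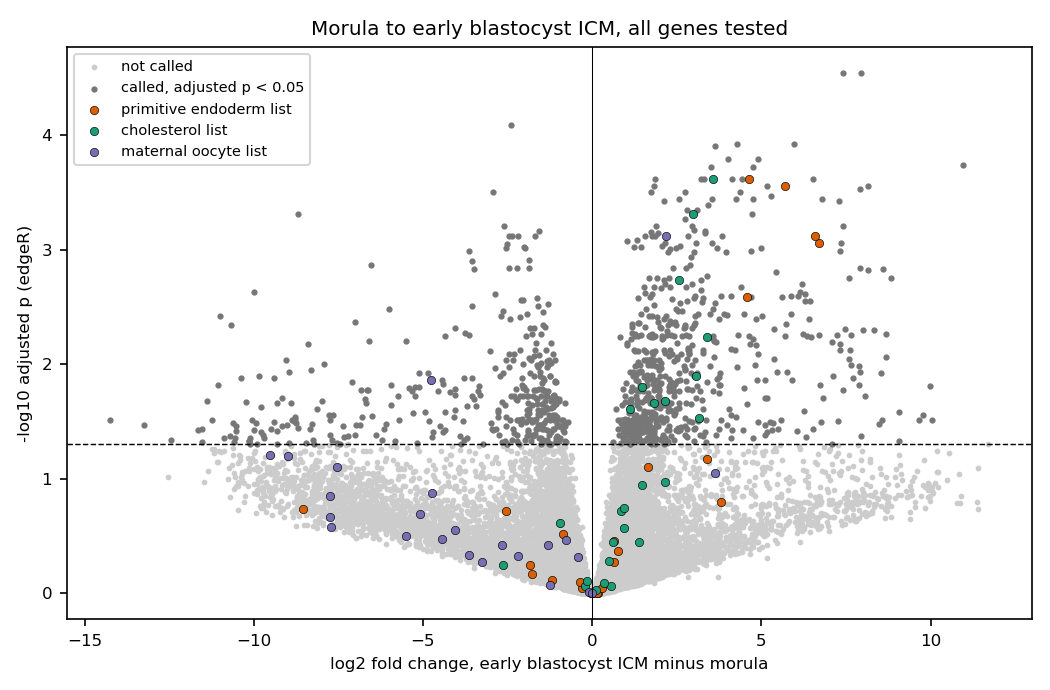
Log2 fold change (horizontal) against -log10 of the adjusted p (vertical) for every gene tested, with members of 3 gene lists in colour and the dashed line at an adjusted p of 0.05. The cholesterol genes and the primitive endoderm genes that passed the test lie to the right, and the oocyte genes mostly to the left below the line.

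The largest rises were taken from called genes with a symbol, 10 CPM or more in the early ICM and no overlap between the groups. They were in genes near the detection limit in the morula. PKDCC, a secreted tyrosine kinase, stood at 0.111, 0.0929 and 0 CPM in the morula and 4.65, 87.1 and 3.84 CPM in the early ICM. All early ICM libraries exceeded the morula, with replicate 2 far above the others. PKDCC had a log2 fold change of 8.83 ± 1.46 (adjusted p = 0.00175). NRG1, the ErbB receptor ligand neuregulin, stood at 0.890, 1.10 and 0.425 CPM in the morula and 303, 112 and 178 CPM in the early ICM. The lowest early ICM library was far above the highest morula library. The NRG1 log2 fold change was 7.94 ± 0.73 (adjusted p = 2.85e-05). CDX1, a caudal type homeobox factor, stood at 0.0742, 0.112 and 0.106 CPM in the morula and 52.6, 19.4 and 12.7 CPM in the early ICM. SOD3, the extracellular superoxide dismutase, stood at 0.148, 0.149 and 0.230 CPM in the morula and 49.5, 16.6 and 24.99 CPM in the early ICM. Both were high in each early ICM library, with log2 fold change 8.14 ± 1.03, adjusted p = 0.000276 for CDX1 and log2 fold change 7.41 ± 0.68, adjusted p = 2.85e-05 for SOD3.

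NOSTRIN, which regulates nitric oxide synthase trafficking, was less even, at 0, 0.260 and 0.106 CPM in the morula and 130.1, 0.436 and 24.1 CPM in the early ICM. Early ICM replicate 2 stood just above the highest morula library. For NOSTRIN the log2 fold change was 8.69 ± 1.68 (adjusted p = 0.00541). CPVL, a carboxypeptidase, stood at 0.297, 1.04 and 0.708 CPM in the morula and 373, 4.51 and 16.8 CPM in the early ICM, with early ICM replicate 1 above the rest. CPVL had a log2 fold change of 7.58 ± 1.25 (adjusted p = 0.00175). ACVRL1, a type I receptor of the TGF-beta family, stood at 0.0371, 0.0743 and 0.0885 CPM in the morula and 15.5, 1.06 and 20.5 CPM in the early ICM. The ACVRL1 log2 fold change was 7.48 ± 1.43 (adjusted p = 0.00496). The rest of the 12 largest rises were CAPN13, CNDP1, CCDC152, FGG and CLDN4, with log2 fold changes of 7.32 to 8.67. CLDN4, a tight junction claudin, stood at 0.0371, 0.0743 and 0.0354 CPM in the morula and 21.5, 35.8 and 0.125 CPM in the early ICM. Its rise sat in the same 2 early ICM libraries that carried the markers KRT7 and GATA2, and replicate 3 stood barely above the morula. For CLDN4 the log2 fold change was 8.54 ± 1.88 (adjusted p = 0.0119). The call of FGG was lost without morula replicate 1 (adjusted p = 0.05), and that of CLDN4 without morula replicate 1 (adjusted p = 0.063).

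The largest falls were in genes that early ICM libraries barely held. RHBG, an ammonium transporter, stood at 71.9, 29.03 and 36.99 CPM in the morula and had no count in any early ICM library. Taking 3 counts over the group as the most that a count of 0 allows, that was at least 2150-fold lower. CCNO, a cyclin of multiciliated cells, and IL31RA, a cytokine receptor subunit, also had no count in the early ICM, at least 1090-fold and 617-fold lower. HKDC1, a hexokinase-like enzyme, stood at 120.1, 88.5 and 144 CPM in the morula and 0, 0.0831 and 0.0415 CPM in the early ICM. HKDC1 had a log2 fold change of -11.37 ± 2.77 (adjusted p = 0.021). FBLN5, an elastic fibre protein, stood at 91.7, 101 and 42.3 CPM in the morula and 0.0454, 0.0208 and 0.0415 CPM in the early ICM, and ELAVL2, a neuronal type RNA-binding protein, at 10.4, 18.1 and 18.2 CPM in the morula and 0.0454, 0 and 0 CPM in the early ICM. Every morula library exceeded every early ICM library for each of these genes, by the rule that chose them. FBLN5 (log2 fold change -11.004 ± 2.02, adjusted p = 0.00381) and ELAVL2 (log2 fold change -9.83 ± 2.11, adjusted p = 0.0126) were called whichever library was left out. The counts behind ELAVL2 were 2565 in the morula and 2 in the early ICM, a ratio of 1100 with a 95% counting interval of 303 to 9060. The calls of RHBG (adjusted p = 0.0502 to 0.079), CCNO (adjusted p = 0.063 to 0.0856) and IL31RA (adjusted p = 0.0578 to 0.113) were lost whichever library was left out. The call of HKDC1 was lost without morula replicate 1 or early ICM replicates 1, 2 or 3 (adjusted p = 0.0524 to 0.0719). NFE2, STX11, PTGER3, CDKL2, CTSW and IFI35 completed the 12 largest falls, with 10.9 to 27.5 CPM on average in the morula and a mean of at most 0.0554 CPM in the early ICM. The calls of STX11 (adjusted p = 0.0625 to 0.122) and PTGER3 (adjusted p = 0.054 to 0.109) were lost whichever library was left out. The call of NFE2 was lost without morula replicates 1 or 2 or early ICM replicates 1, 2 or 3 (adjusted p = 0.055 to 0.0965), and that of CDKL2 without early ICM replicate 2 (adjusted p = 0.0727) and without early ICM replicate 3 (adjusted p = 0.0794). The call of CTSW was lost without morula replicates 1, 2 or 3 or early ICM replicates 2 or 3 (adjusted p = 0.0685 to 0.0893), and that of IFI35 without morula replicate 1 or early ICM replicates 1, 2 or 3 (adjusted p = 0.0553 to 0.0659).

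**Figure D2:**
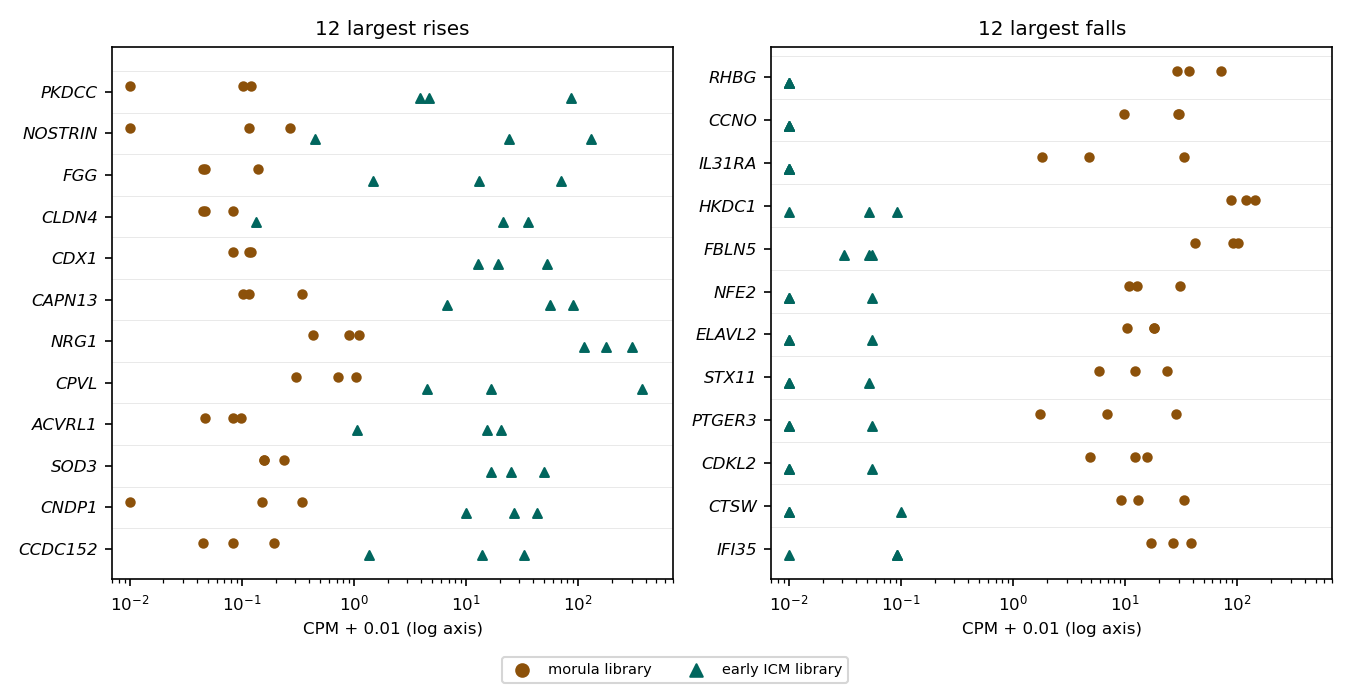
CPM plus 0.01 on a log axis in each of the 3 morula (circles) and 3 early ICM (triangles) libraries for the 12 largest rises and 12 largest falls. No gene's groups overlap, by the rule that chose them, and CLDN4 and NOSTRIN have 1 early ICM library close to the morula.

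By level rather than by ratio, the largest loss was ODC1, ornithine decarboxylase, the first enzyme of polyamine synthesis. It stood at 5602, 5428 and 5395 CPM in the morula and 1322, 1321 and 1704 CPM in the early ICM, and its lowest morula library was 3.17 times its highest early ICM library. The ODC1 log2 fold change was -1.92 ± 0.35 (adjusted p = 0.00364). PDCL3, a chaperone of the actin and tubulin folding system, stood at 1771, 1470.2 and 1418 CPM in the morula and 90.8, 130.2 and 195 CPM in the early ICM. For PDCL3 the log2 fold change was -3.49 ± 0.56 (adjusted p = 0.00147). SPPL3, a membrane protease of the Golgi, stood at 812, 795 and 1165 CPM in the morula and 155, 309 and 229 CPM in the early ICM. SPPL3 had a log2 fold change of -2.001 ± 0.30 (adjusted p = 0.00095). KAT7, the acetyltransferase HBO1, stood at 971, 872 and 505 CPM in the morula and 126, 139 and 191 CPM in the early ICM. The KAT7 log2 fold change was -2.36 ± 0.35 (adjusted p = 0.000761). YTHDF2, a reader of methylated adenosine that sends RNA to decay, stood at 966, 937 and 852 CPM in the morula and 391, 302 and 396 CPM in the early ICM. For YTHDF2 the log2 fold change was -1.34 ± 0.28 (adjusted p = 0.00934). The groups were apart for all of these, and the calls held in each fit without 1 library. RRM2, the small subunit of ribonucleotide reductase, fell from a mean of 919 to 278 CPM (log2 fold change -1.72 ± 0.38, adjusted p = 0.0127), RB1CC1, of autophagy initiation, from 679 to 114 CPM (log2 fold change -2.58 ± 0.64, adjusted p = 0.0229), and EIF4A2, a translation helicase, from 796 to 256 CPM. EIF4A2 had a log2 fold change of -1.63 ± 0.45 (adjusted p = 0.0371). Their calls were less firm. The call of RRM2 was lost without early ICM replicate 1 (adjusted p = 0.0534) and without early ICM replicate 3 (adjusted p = 0.0519), that of RB1CC1 without morula replicate 1 (adjusted p = 0.0582) and without morula replicate 2 (adjusted p = 0.0644), and that of EIF4A2 without morula replicates 1, 2 or 3 or early ICM replicates 2 or 3 (adjusted p = 0.0611 to 0.109).

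The largest gain in level was NLRP7, an NLR family gene of the oocyte and early embryo. It stood at 658, 947 and 761 CPM in the morula and 2640.2, 2852 and 5201 CPM in the early ICM. The NLRP7 log2 fold change was 2.18 ± 0.32 (adjusted p = 0.000761). HSPA9, the mitochondrial chaperone mortalin, stood at 1342, 1374 and 1444 CPM in the morula and 2504, 3102 and 2875 CPM in the early ICM. For HSPA9 the log2 fold change was 1.03 ± 0.15 (adjusted p = 0.000836). EIF3L, a translation initiation subunit, stood at 1505, 1468 and 1389 CPM in the morula and 2732, 2141 and 2834 CPM in the early ICM. EIF3L had a log2 fold change of 0.82 ± 0.16 (adjusted p = 0.00582). Early ICM libraries lay above every morula library in each. The other 5 largest gains were RPL4, a ribosomal protein, PANK3, of coenzyme A synthesis, EEF1G, of translation elongation, ATP5A1, of ATP synthase, and MDH2, malate dehydrogenase. Their log2 fold changes were 0.79 to 1.60. The call of EEF1G (adjusted p = 0.0506 to 0.123) was lost whichever library was left out. The call of RPL4 was lost without morula replicates 1, 2 or 3 or early ICM replicates 1 or 2 (adjusted p = 0.0519 to 0.111), and that of PANK3 without morula replicates 1, 2 or 3 or early ICM replicate 3 (adjusted p = 0.0534 to 0.127).

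Genes of the oocyte were mostly lower in the early ICM, but few passed the test. Of 49 listed, 32 had a symbol in the table and 24 were tested. GDF9, an oocyte growth factor, fell and NLRP7 rose, 1 gene each way (4.17% of the list each). Of the 24, 21 had a log2 fold change below 0, with a list median of -3.85. That median rests in part on genes with few counts. NOBOX, at 0, 1.52 and 0 CPM in the morula and no count in the early ICM, had -7.74. Among abundant members NLRP9 had -0.08 and RNF114 -0.41. GDF9 stood at 19.4, 32.1 and 45.9 CPM in the morula and 1.34, 1.54 and 0.726 CPM in the early ICM. The lowest morula library was 12.6 times the highest early ICM library. The GDF9 log2 fold change was -4.76 ± 1.07 (adjusted p = 0.0137). The call of GDF9 was lost without early ICM replicate 3 (adjusted p = 0.0556). Most other oocyte genes were low already in the morula. ZAR1, needed for the oocyte-to-embryo transition, stood at 0.798, 1.80 and 6.49 CPM in the morula and 0, 0 and 0.0415 CPM in the early ICM. For ZAR1 the log2 fold change was -7.53 ± 2.29 (adjusted p = 0.0789). WEE2, an oocyte kinase, stood at 0, 7.99 and 11.98 CPM in the morula and 0.0454, 0.0415 and 0 CPM in the early ICM. WEE2 had a log2 fold change of -7.74 ± 2.92 (adjusted p = 0.141). ZP2, ZP3 and ZP4, of the egg coat, NOBOX and NLRP5 had no mean above 11.5 CPM in either group, and none was called. KHDC3L, of the subcortical maternal complex, was abundant in both groups, at 1109, 1137 and 2096 CPM in the morula and 841, 782 and 898 CPM in the early ICM. The KHDC3L log2 fold change was -0.78 ± 0.49 (adjusted p = 0.345). TLE6, of the same complex, stood at 0.130, 11.3 and 0.354 CPM in the morula and 15.4, 61.6 and 69.1 CPM in the early ICM (log2 fold change 3.63 ± 1.23, adjusted p = 0.089) and was not called. The matched oocyte markers summed to 30.2, 45.5 and 71.4 CPM in the morula and 4.27, 2.20 and 0.789 CPM in the early ICM.

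Of 7 tested genes of the list for genome activation at the 8-cell stage, 1 fell (14.3%) and none rose. PRAMEF20, of a primate gene family with near-identical copies whose reads may be shared, stood at 309, 153 and 46.3 CPM in the morula and 22.9, 39.4 and 11.04 CPM in the early ICM. For PRAMEF20 the log2 fold change was -2.80 ± 0.70 (adjusted p = 0.0288). The call of PRAMEF20 was lost without morula replicates 1 or 2 or early ICM replicates 1 or 3 (adjusted p = 0.06 to 0.151). ARGFX, a divergent homeobox gene, stood at 4.38, 4.89 and 9.15 CPM in the morula and 0.0681, 0.0415 and 0.104 CPM in the early ICM. ARGFX had a log2 fold change of -6.38 ± 3.04 (adjusted p = 0.217). ZNF280A stood at 58.6, 21.8 and 26.1 CPM in the morula and 1.97, 0.0831 and 0 CPM in the early ICM. The ZNF280A log2 fold change was -5.69 ± 1.88 (adjusted p = 0.0818). Neither was called, though their groups did not overlap.

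Pluripotency factors were expressed on both sides of the step. Among 16 tested genes shared by naive and primed cells none rose and 1 fell, and among 16 naive and ICM genes 1 rose. POU5F1, the core factor OCT4, stood at 518, 461 and 910.1 CPM in the morula and 642, 1164 and 911 CPM in the early ICM. For POU5F1 the log2 fold change was 0.52 ± 0.50 (adjusted p = 0.574). SOX2 stood at 23.6, 16.2 and 43.2 CPM in the morula and 39.5, 97.02 and 55.3 CPM in the early ICM. SOX2 had a log2 fold change of 1.21 ± 0.59 (adjusted p = 0.228). NANOG stood at 165, 379.9 and 508 CPM in the morula and 1324, 551 and 728 CPM in the early ICM. The NANOG log2 fold change was 1.31 ± 0.58 (adjusted p = 0.185). POU5F1 and SOX2 libraries overlapped, while every early ICM library exceeded the morula for NANOG, which was not called. KLF17, a factor of the primate epiblast, stood at 162, 46.6 and 55.3 CPM in the morula and 2.38, 15.6 and 27.03 CPM in the early ICM (log2 fold change -2.55 ± 1.25, adjusted p = 0.224), with the early ICM below the morula. TFAP2C stood at 201, 176 and 282 CPM in the morula and 99.5, 139.6 and 81.2 CPM in the early ICM. For TFAP2C the log2 fold change was -1.04 ± 0.46 (adjusted p = 0.178). The gene that fell was LIN28A, a let-7 regulator, with 1.52, 3.33 and 2.49 CPM in the morula and no count in the early ICM, at least 115-fold lower, which was a small level throughout. Its paralog LIN28B stood at 52.2, 109 and 40.5 CPM in the morula and 39.1, 65.6 and 106 CPM in the early ICM. LIN28B had a log2 fold change of 0.06 ± 0.66 (adjusted p = 1). The gene that rose was IL6ST, the receptor subunit gp130 of LIF and IL-6 signalling, at 1.91, 1.38 and 0.0708 CPM in the morula and 29.5, 36.02 and 15.3 CPM in the early ICM. The IL6ST log2 fold change was 4.59 ± 1.13 (adjusted p = 0.0221). The call of IL6ST was lost without morula replicates 1, 2 or 3 (adjusted p = 0.0511 to 0.0723). STAT3, its effector, stood at 166, 217 and 143 CPM in the morula and 204, 76.2 and 151 CPM in the early ICM. For STAT3 the log2 fold change was -0.29 ± 0.47 (adjusted p = 0.781).

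A minority of primitive endoderm genes rose, among them a receptor and matrix genes, while the lineage factor GATA6 was already abundant in the morula. Of 26 tested members 5 rose (19.2%, against 3.89% of all genes and 4.95% of those with a symbol) and none fell. The list median was 0.16. PDGFRA, the PDGF receptor that marks the lineage, stood at 13.6, 11.6 and 10.4 CPM in the morula and 969, 276 and 608 CPM in the early ICM. Its lowest early ICM library was 20.3 times its highest morula library. PDGFRA had a log2 fold change of 5.70 ± 0.72 (adjusted p = 0.000276). COL4A1 and COL4A2, the type IV collagen chains, stood at 0.631, 2.30 and 0.248 CPM in the morula and 179, 130.5 and 19.1 CPM in the early ICM and at 0.371, 0.688 and 0.106 CPM in the morula and 73.96, 20.4 and 17.95 CPM in the early ICM, with early ICM replicate 3 the lowest for both (log2 fold change 6.69 ± 1.004, adjusted p = 0.000877 and log2 fold change 6.59 ± 0.97, adjusted p = 0.000761). NID2, a nidogen that links laminin to collagen, stood at 6.83, 18.1 and 35.4 CPM in the morula and 674, 112 and 638 CPM in the early ICM. The NID2 log2 fold change was 4.56 ± 0.79 (adjusted p = 0.0026). SERPINH1, the collagen chaperone HSP47, stood at 1.67, 5.15 and 1.31 CPM in the morula and 61.6, 60.6 and 80.1 CPM in the early ICM. For SERPINH1 the log2 fold change was 4.64 ± 0.57 (adjusted p = 0.000241). No early ICM library of these 5 genes reached down into the morula, and all 5 calls held in each fit without 1 library. With early ICM replicate 3 alone 6 members of the list were called higher.

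GATA6, the factor that specifies primitive endoderm, stood at 1217, 2031 and 2952 CPM in the morula and 585, 2249.6 and 3493 CPM in the early ICM. The ranges of the groups were wide and overlapped. GATA6 had a log2 fold change of 0.03 ± 0.68 (adjusted p = 1). GATA4 stood at 8.92, 6.32 and 13.1 CPM in the morula and 8.37, 5.11 and 1.95 CPM in the early ICM. The GATA4 log2 fold change was -0.88 ± 0.51 (adjusted p = 0.305). HNF4A, a factor of visceral endoderm and liver, stood at 45.1, 106 and 65.2 CPM in the morula and 91.96, 53.96 and 64.6 CPM in the early ICM. For HNF4A the log2 fold change was -0.04 ± 0.47 (adjusted p = 1). LRP2 and DAB2, of endocytosis in extraembryonic endoderm, were abundant and not called, at 399.7, 685 and 843 CPM in the morula and 1074, 771 and 1168 CPM in the early ICM and at 161, 827 and 419.7 CPM in the morula and 821, 611 and 959 CPM in the early ICM. LAMA1 and LAMC1, laminin chains, were higher in every early ICM library and missed the threshold (log2 fold change 3.40 ± 1.06, adjusted p = 0.0668 and log2 fold change 1.65 ± 0.54, adjusted p = 0.0796). FOXA2, APOB and SERPINA1 stood at 0.204 CPM or less in all 6 libraries. Other members that were not called had more counts. TF stood at 0.0185, 2.19 and 0.637 CPM in the morula and 0.613, 0.104 and 39.5 CPM in the early ICM. APOA1 stood at 0.408, 3.42 and 3.77 CPM in the morula and 0.272, 1.79 and 0.0415 CPM in the early ICM. Over the 6 matched endoderm markers, which GATA6 dominates, the sum was 1285, 2158 and 3041 CPM in the morula and 1833, 2715 and 4187 CPM in the early ICM.

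**Figure D3:**
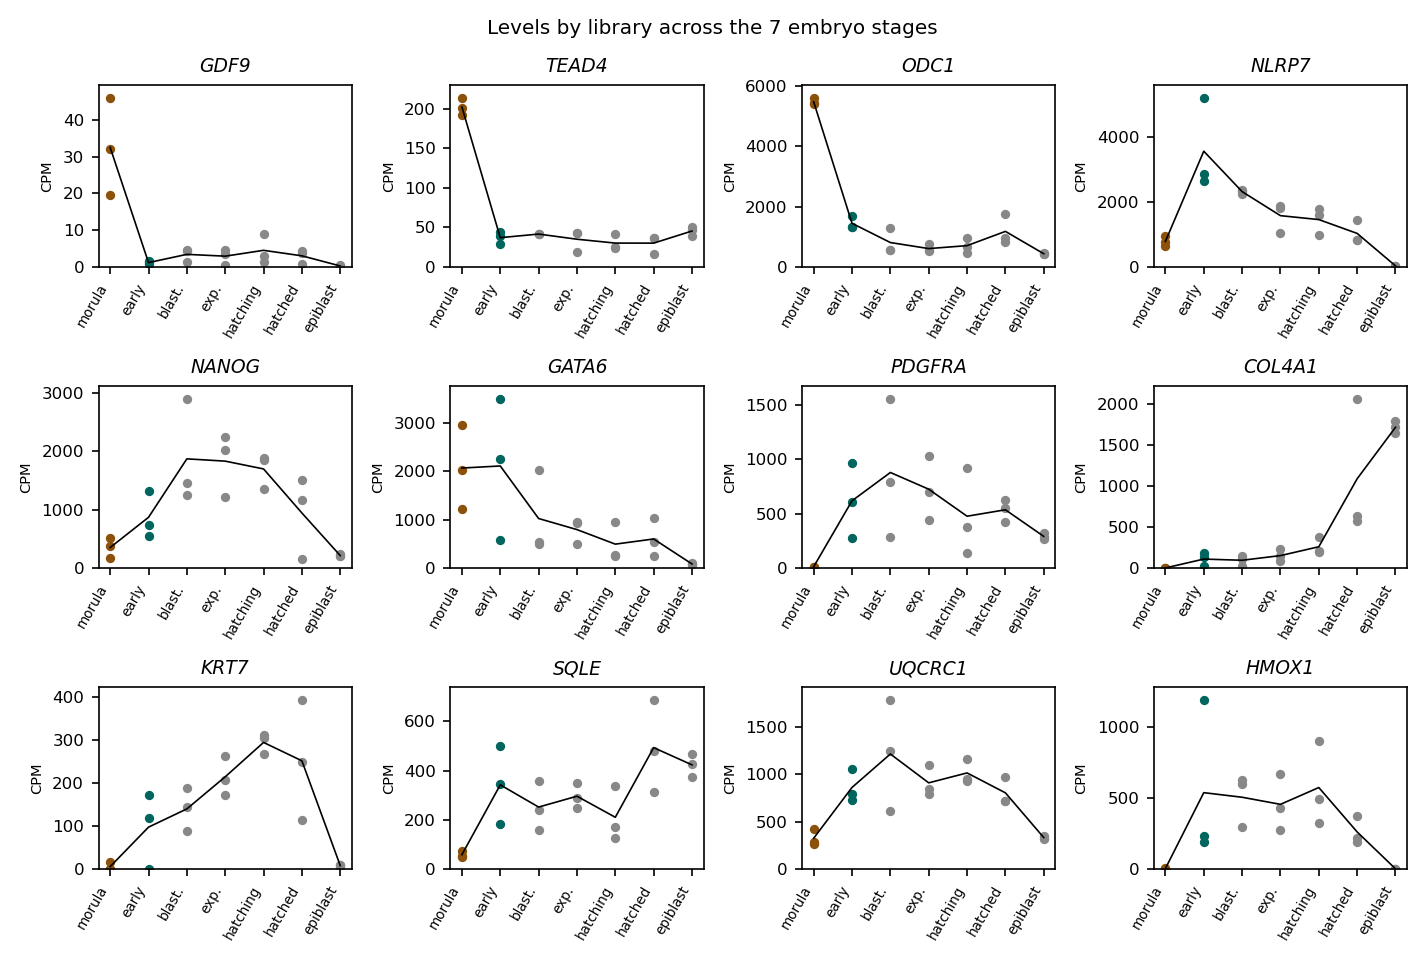
CPM of 12 genes, picked after their values were seen, in each of the 3 libraries of 7 embryo stages, with lines through the means. The morula (brown) and early ICM (green) points are apart for PDGFRA, TEAD4 and ODC1, overlap for GATA6, and for KRT7 early ICM replicate 3 lies with the morula.

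Trophectoderm genes held no call. Of 17 tested trophectoderm genes none was called in either direction, with a median of 0.26. At an unadjusted p under 0.05 there were 5, and DESeq2 called 4. KRT7, an epithelial keratin, stood at 0.668, 16.04 and 0.106 CPM in the morula and 173, 119 and 0.706 CPM in the early ICM. KRT7 had a log2 fold change of 4.12 ± 1.40 (adjusted p = 0.0896). GATA2 stood at 5.62, 0.595 and 1.72 CPM in the morula and 34.5, 58.5 and 0.768 CPM in the early ICM. The GATA2 log2 fold change was 3.56 ± 1.58 (adjusted p = 0.182). Early ICM replicates 1 and 2 exceeded the morula for both, and replicate 3 lay within its range. CDX2 stood at 0.297, 0.372 and 1.20 CPM in the morula and 2.66, 0.374 and 0 CPM in the early ICM, and EOMES and CYP19A1 at no more than 2.41 CPM in any library. Among 17 tested genes of tight junctions and ion pumps 3 rose (17.6%) and none fell, with CLDN4 and CLDN7 among the 3. CLDN7, a claudin, stood at 105, 64.3 and 118 CPM in the morula and 167, 387 and 166 CPM in the early ICM. For CLDN7 the log2 fold change was 1.32 ± 0.37 (adjusted p = 0.0437). The call of CLDN7 was lost without morula replicates 1, 2 or 3 or early ICM replicate 2 (adjusted p = 0.0613 to 0.225). With early ICM replicate 3 alone the log2 fold change was 1.33 for CLDN4 and 0.81 for CLDN7. That library was taken for its low sum of matched trophectoderm markers, mostly KRT7 and GATA2, with CLDN4 already seen to be low in it. CLDN7 was as high in replicate 1 as in replicate 3. A link of either rise to trophectoderm RNA was not tested.

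Of 27 tested genes of compaction, polarity and Hippo signalling, the pathway that reads cell position, 1 rose (3.7%) and 2 fell (7.41%). Among tested genes with a symbol these shares were 4.95% and 2.48%. TEAD4, the factor that outer cells need for trophectoderm, stood at 214, 192 and 201 CPM in the morula and 38.6, 44.3 and 28.5 CPM in the early ICM. The 6 libraries formed 2 tight groups (log2 fold change -2.45 ± 0.36, adjusted p = 0.000761), and the call held in each fit without 1 library. TEAD1, its paralog, stood at 31.2, 42.8 and 68.4 CPM in the morula and 3.31, 9.87 and 14.2 CPM in the early ICM. TEAD1 had a log2 fold change of -2.38 ± 0.68 (adjusted p = 0.0463). The call of TEAD1 (adjusted p = 0.0526 to 0.136) was lost whichever library was left out. CDH1, the adhesion molecule E-cadherin, stood at 131, 158 and 161 CPM in the morula and 372, 264 and 420.1 CPM in the early ICM. The CDH1 log2 fold change was 1.23 ± 0.34 (adjusted p = 0.0377). The call of CDH1 was lost without morula replicates 1, 2 or 3 or early ICM replicates 1 or 3 (adjusted p = 0.0727 to 0.134). NF2 and AMOT, which restrain YAP, were higher on average but not called (log2 fold change 1.26 ± 0.42, adjusted p = 0.0859 and log2 fold change 1.65 ± 0.59, adjusted p = 0.106).

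Some receptors of the activin, BMP and WNT pathways were among the genes that rose. Of 18 tested NODAL and BMP genes 3 rose (16.7%, against 4.95% of tested genes with a symbol) and none fell, and the list median was -0.12. ACVR1, a type I receptor of BMP and activin, stood at 32.5, 92.4 and 98.9 CPM in the morula and 502, 377 and 419 CPM in the early ICM. For ACVR1 the log2 fold change was 2.54 ± 0.46 (adjusted p = 0.00345). ACVR1B, the activin and NODAL type I receptor, stood at 9.79, 11.5 and 23.6 CPM in the morula and 154, 39.1 and 91.9 CPM in the early ICM. ACVR1B had a log2 fold change of 2.67 ± 0.52 (adjusted p = 0.00572). In both genes each early ICM library exceeded the morula. SMAD3, an effector of activin and NODAL signalling, stood at 3.23, 1.004 and 1.70 CPM in the morula and 9.42, 3.80 and 46.3 CPM in the early ICM. The SMAD3 log2 fold change was 3.33 ± 0.92 (adjusted p = 0.0394). The call of SMAD3 was lost without morula replicates 1, 2 or 3 or early ICM replicate 3 (adjusted p = 0.0762 to 0.26). NODAL, the ligand, stood at 113, 29.5 and 54.7 CPM in the morula and 26.8, 2.97 and 21.01 CPM in the early ICM. For NODAL the log2 fold change was -1.96 ± 1.01 (adjusted p = 0.248). BMP7 stood at 10.6, 17.2 and 9.75 CPM in the morula and 2.02, 0.706 and 0 CPM in the early ICM (log2 fold change -3.78 ± 1.41, adjusted p = 0.12); neither was called.

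Of 20 tested WNT genes 3 rose (15.0%, against 4.95% of tested genes with a symbol) and none fell. LGR4, the R-spondin receptor, stood at 0.0371, 6.17 and 5.98 CPM in the morula and 312, 40.4 and 70.1 CPM in the early ICM. LGR4 had a log2 fold change of 5.12 ± 1.15 (adjusted p = 0.0136). FZD5, a WNT receptor, stood at 2.67, 0.186 and 6.93 CPM in the morula and 41.8, 32.9 and 51.5 CPM in the early ICM. The FZD5 log2 fold change was 3.69 ± 0.83 (adjusted p = 0.0135). WNT3A, a ligand, stood at 0.427, 0.130 and 1.03 CPM in the morula and 24.2, 22.95 and 7.66 CPM in the early ICM. For WNT3A the log2 fold change was 5.11 ± 1.23 (adjusted p = 0.0197). All early ICM libraries lay above the morula. The call of FZD5 was lost without morula replicate 1 (adjusted p = 0.0702), and that of WNT3A without morula replicate 1 (adjusted p = 0.0895) and without morula replicate 2 (adjusted p = 0.0803).

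Of 12 tested genes of FGF and ERK signalling 2 rose and 2 fell (16.7% each, against 4.95% and 2.48% of tested genes with a symbol). MAPK3, the kinase ERK1, stood at 4.95, 4.42 and 1.26 CPM in the morula and 82.6, 49.1 and 56.1 CPM in the early ICM. MAPK3 had a log2 fold change of 4.14 ± 0.51 (adjusted p = 0.000241). Every early ICM library exceeded the morula, and the call held in each fit without 1 library. ETV1, an ERK-responsive factor, stood at 0.0371, 0.520 and 0.212 CPM in the morula and 129.7, 0.415 and 24.3 CPM in the early ICM, so early ICM replicate 2 lay inside the morula range. The ETV1 log2 fold change was 7.64 ± 1.49 (adjusted p = 0.00556). SPRY2, an ERK feedback inhibitor, had at most 0.686 CPM in the morula and no count in the early ICM, at least 18.2-fold lower. The call of SPRY2 (adjusted p = 0.0516 to 0.0939) was lost whichever library was left out. FGFR2 and FGFR4, receptors of the pathway, were not called (log2 fold change -0.35 ± 0.63, adjusted p = 0.803 and log2 fold change 1.22 ± 0.40, adjusted p = 0.0818).

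Cholesterol synthesis and uptake had the largest share of risen genes among the lists of over 10 tested genes. Of 25 tested members 10 rose (40.0%, against 3.89% of all genes and 4.95% of those with a symbol) and none fell. A log2 fold change above 0 was found in 21, and the median was 1.13. SQLE, squalene epoxidase, stood at 71.7, 50.6 and 52.5 CPM in the morula and 344, 182 and 499 CPM in the early ICM. For SQLE the log2 fold change was 2.55 ± 0.42 (adjusted p = 0.00183). FDFT1, squalene synthase, stood at 37.9, 41.5 and 29.05 CPM in the morula and 132, 199.9 and 521 CPM in the early ICM. FDFT1 had a log2 fold change of 2.98 ± 0.41 (adjusted p = 0.000486). In both the groups were apart, with early ICM replicate 2 the lowest for SQLE and replicate 1 for FDFT1. INSIG1, which holds the sterol sensor in the membrane, stood at 26.2, 23.6 and 33.2 CPM in the morula and 121, 107 and 637 CPM in the early ICM, with replicate 3 well above the others. The INSIG1 log2 fold change was 3.38 ± 0.67 (adjusted p = 0.00582). HMGCS1, MVK and MVD, of the mevalonate pathway, MSMO1, of sterol demethylation, and ACAT2, which makes acetoacetyl coenzyme A, rose by 1.13 to 3.17 on the log2 scale. CYP51A1, the lanosterol demethylase, was not called (log2 fold change -0.94 ± 0.48, adjusted p = 0.242), nor were IDI1 (log2 fold change 0.11 ± 0.43, adjusted p = 0.941) and SREBF1, the gene of SREBP1. For SREBF1 the log2 fold change was 2.15 ± 0.78 (adjusted p = 0.108).

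The calls of FDFT1, SQLE and INSIG1 held in each fit without 1 library. The call of HMGCS1 was lost without morula replicates 1, 2 or 3 or early ICM replicate 3 (adjusted p = 0.0746 to 0.101). The number of cholesterol genes that rose was 5 to 10 with 1 library left out, 5 without morula replicate 1, 6 without morula replicate 2, 6 without morula replicate 3 and 5 without early ICM replicate 3. It was 9 with early ICM replicate 3 alone and 3 in the fit of the 6 libraries alone. The call of MVK was lost without morula replicates 1 or 2 or early ICM replicate 3 (adjusted p = 0.0547 to 0.0588), and that of MVD without morula replicates 1 or 2 or early ICM replicate 2 (adjusted p = 0.0678 to 0.0768). The call of MSMO1 was lost without morula replicates 1 or 3 or early ICM replicate 3 (adjusted p = 0.0699 to 0.0963), and that of ACAT2 without morula replicates 2 or 3 or early ICM replicate 3 (adjusted p = 0.0634 to 0.114).

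Of 18 tested genes of fatty acid synthesis 3 rose (16.7%) and 1 fell. The number that rose was 1 to 5 with 1 library left out, 1 without morula replicate 1 or early ICM replicate 3 and 5 without early ICM replicate 2. FASN, fatty acid synthase, stood at 70.2, 90.6 and 155 CPM in the morula and 235, 354 and 390.3 CPM in the early ICM. FASN had a log2 fold change of 1.63 ± 0.39 (adjusted p = 0.0189). ACLY, which makes cytosolic acetyl coenzyme A from citrate, stood at 169, 203 and 189.9 CPM in the morula and 348, 293 and 643 CPM in the early ICM. The ACLY log2 fold change was 1.19 ± 0.26 (adjusted p = 0.0117). The early ICM was above the morula in both. ACSL5, an acyl coenzyme A synthetase, stood at 0.445, 6.56 and 2.87 CPM in the morula and 146, 65.4 and 34.2 CPM in the early ICM. For ACSL5 the log2 fold change was 4.64 ± 0.91 (adjusted p = 0.00572). HACD3, a dehydratase of chain elongation, fell, at 489.7, 463 and 406 CPM in the morula and 103, 145 and 62.7 CPM in the early ICM. HACD3 had a log2 fold change of -2.13 ± 0.43 (adjusted p = 0.00747). SLC25A1, the mitochondrial citrate carrier that feeds ACLY, stood at 124, 117 and 169 CPM in the morula and 406, 597 and 478 CPM in the early ICM (log2 fold change 1.86 ± 0.23, adjusted p = 0.000241), 1 of 3 of 27 tested solute carriers that rose. The call of FASN was lost without morula replicates 1 or 2 or early ICM replicate 3 (adjusted p = 0.0659 to 0.101), and that of ACLY without morula replicate 1 (adjusted p = 0.0563) and without early ICM replicate 3 (adjusted p = 0.0717). The calls of ACSL5, HACD3 and SLC25A1 held in each fit without 1 library. Of 28 tested genes of lipid storage and transport only LPIN1, a phosphatidate phosphatase, rose, at 0.0371, 0.0743 and 0.0354 CPM in the morula and 0.0227, 20.9 and 3.84 CPM in the early ICM, where early ICM replicate 1 lay below the morula. The LPIN1 log2 fold change was 7.33 ± 1.47 (adjusted p = 0.00663). PLIN2, the lipid droplet coat, stood at 85.2, 224 and 140.0 CPM in the morula and 179.8, 376 and 382 CPM in the early ICM. For PLIN2 the log2 fold change was 1.06 ± 0.35 (adjusted p = 0.0804).

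**Figure D4:**
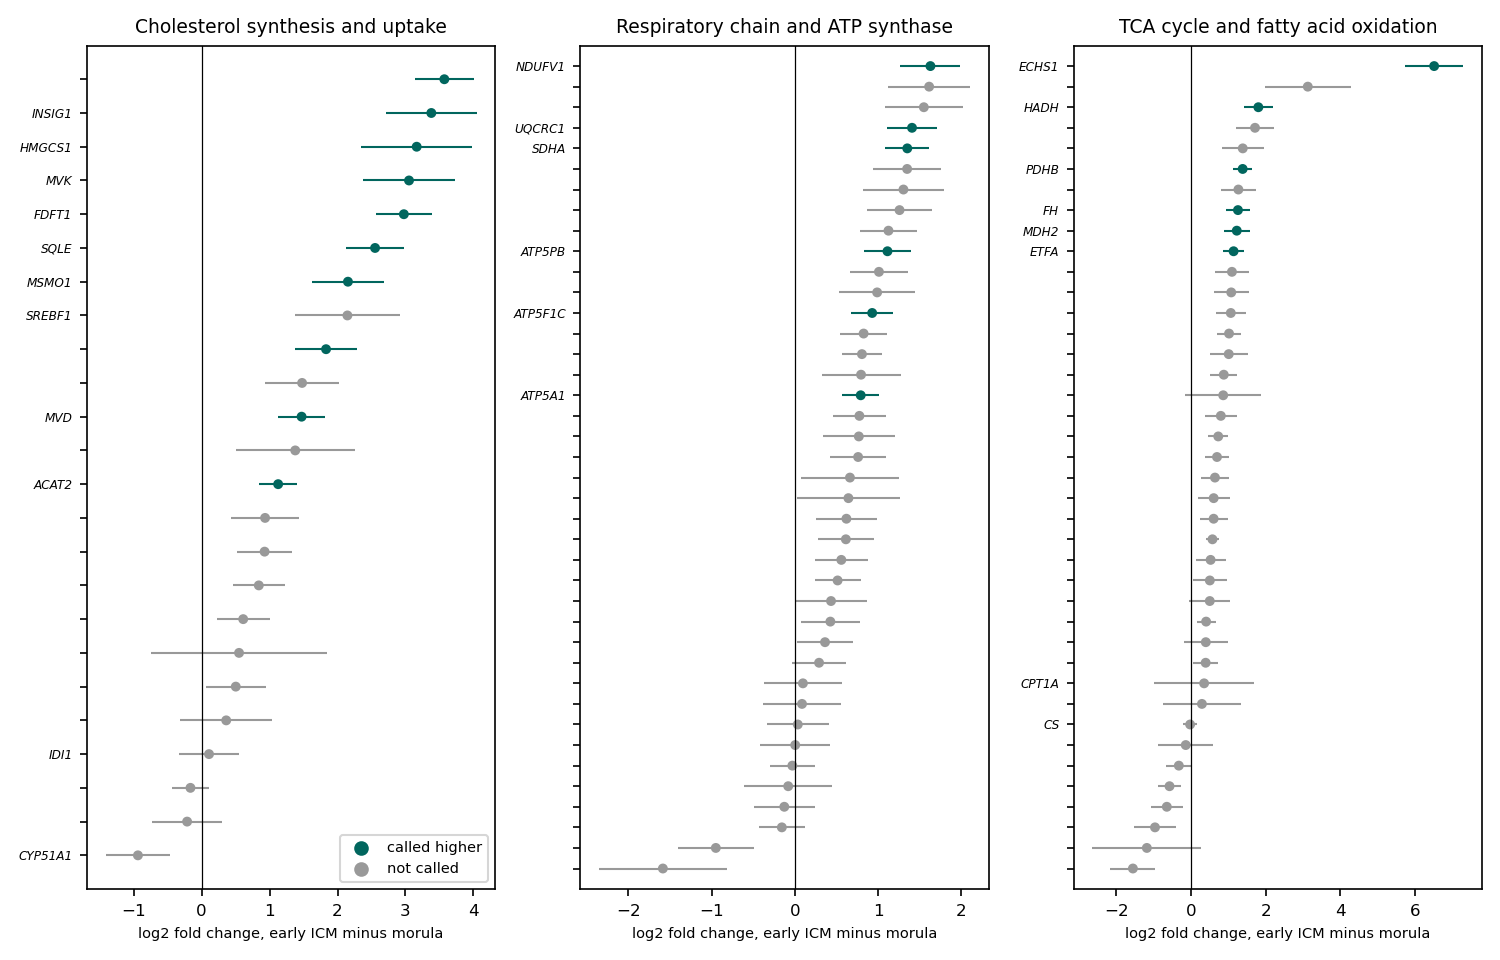
Log2 fold change with its standard error (bar) for tested members with a mean of at least 1 CPM in either group, in green where called higher, with names for the genes given in the text. Cholesterol genes reach above 3, most respiratory chain genes lie between 0 and 2, and ECHS1 stands alone at 6.51.

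Genes of oxygen-based metabolism leaned upward with few calls. Of 41 tested nuclear genes of complexes I to V 6 rose (14.6%) and none fell. The share that rose was 3.89% of all genes, 4.95% of those with a symbol and 7.15% of those averaging at least 10 CPM. Of the 41, 34 had a log2 fold change above 0, with a median of 0.66. Members of all lists leaned the same way, with 395 of 644 above 0 and a median of 0.36. SDHA, the flavoprotein of complex II that also serves the TCA cycle, stood at 62.8, 97.5 and 117 CPM in the morula and 271, 189 and 246 CPM in the early ICM. Each early ICM library exceeded each morula library (log2 fold change 1.35 ± 0.27, adjusted p = 0.00565), and the call held in each fit without 1 library. UQCRC1, a core subunit of complex III, stood at 280.2, 266 and 426 CPM in the morula and 793, 1054 and 732 CPM in the early ICM. UQCRC1 had a log2 fold change of 1.41 ± 0.30 (adjusted p = 0.0102). NDUFV1, of the NADH site of complex I, stood at 39.4, 51.1 and 70.003 CPM in the morula and 209, 136 and 151 CPM in the early ICM. The NDUFV1 log2 fold change was 1.63 ± 0.36 (adjusted p = 0.0125). The other 3 were ATP synthase subunits: ATP5A1 (the alpha chain), ATP5F1C (gamma) and ATP5PB (of the stator), with log2 fold changes of 0.79 to 1.11. By complex, 1 of 23 tested genes rose in complex I, 1 of 4 in complex II, 1 of 4 in complex III, 0 of 3 in complex IV and 3 of 7 in ATP synthase. The calls beside SDHA depended on single libraries. The call of UQCRC1 was lost without morula replicate 1 (adjusted p = 0.0618) and without morula replicate 2 (adjusted p = 0.0601), and that of NDUFV1 without morula replicate 1 (adjusted p = 0.0735) and without morula replicate 2 (adjusted p = 0.0559). The call of ATP5A1 was lost without morula replicates 1, 2 or 3 or early ICM replicate 1 (adjusted p = 0.0873 to 0.17), that of ATP5F1C without morula replicates 1, 2 or 3 or early ICM replicates 1 or 3 (adjusted p = 0.0698 to 0.124), and that of ATP5PB without morula replicates 1 or 3 or early ICM replicates 1 or 3 (adjusted p = 0.0534 to 0.122). The list count was 1 to 7 with 1 library left out, 1 without morula replicate 1, 2 without morula replicate 2 and 3 without morula replicate 3. With early ICM replicate 3 alone 1 member was called higher and 1 lower, and the fit of the 6 libraries alone called 0 by edgeR, where 16 members had an unadjusted p under 0.05. DESeq2 called 12.

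Of 17 tested TCA cycle genes 3 rose (17.6%). PDHB, of pyruvate dehydrogenase, stood at 303, 367 and 300.1 CPM in the morula and 1005, 803 and 728 CPM in the early ICM. For PDHB the log2 fold change was 1.39 ± 0.26 (adjusted p = 0.00433). FH, fumarase, stood at 22.96, 26.1 and 54.9 CPM in the morula and 96.2, 86.7 and 66.2 CPM in the early ICM. FH had a log2 fold change of 1.26 ± 0.32 (adjusted p = 0.0283). MDH2 was the third, at 591, 492 and 941 CPM in the morula and 1252, 2271 and 1221 CPM in the early ICM. The MDH2 log2 fold change was 1.23 ± 0.35 (adjusted p = 0.0445). The groups were apart in each, and only the call of PDHB held in each fit without 1 library. The call of FH was lost without morula replicates 1 or 2 or early ICM replicates 1 or 2 (adjusted p = 0.0665 to 0.136), and that of MDH2 without morula replicates 1 or 2 or early ICM replicates 2 or 3 (adjusted p = 0.0566 to 0.192). CS, citrate synthase, stood at 629.7, 498 and 526 CPM in the morula and 651, 528 and 451 CPM in the early ICM. For CS the log2 fold change was -0.02 ± 0.19 (adjusted p = 0.998). Of 23 tested genes of fatty acid oxidation 3 rose (13.0%). ECHS1, the enoyl hydratase of that spiral, stood at 0.0742, 0.204 and 0.106 CPM in the morula and 19.3, 7.19 and 9.30 CPM in the early ICM, the largest ratio in the list. ECHS1 had a log2 fold change of 6.51 ± 0.79 (adjusted p = 0.000241). HADH, the next enzyme, stood at 15.3, 24.01 and 18.8 CPM in the morula and 65.5, 82.1 and 55.8 CPM in the early ICM. The HADH log2 fold change was 1.81 ± 0.39 (adjusted p = 0.0102). ETFA, which passes electrons to the chain, stood at 181, 146 and 165 CPM in the morula and 408, 255 and 423 CPM in the early ICM. For ETFA the log2 fold change was 1.14 ± 0.29 (adjusted p = 0.0254). The call of HADH was lost without morula replicate 1 (adjusted p = 0.058), and that of ETFA without morula replicates 1, 2 or 3 or early ICM replicates 1 or 3 (adjusted p = 0.0694 to 0.108). CPT1A, the entry step, stood at 14.9, 10.2 and 7.25 CPM in the morula and 9.65, 2.45 and 29.2 CPM in the early ICM. CPT1A had a log2 fold change of 0.35 ± 1.33 (adjusted p = 0.934). Of 17 tested genes of glycolysis 1 rose, PFKL, a phosphofructokinase. The PFKL log2 fold change was 2.27 ± 0.61 (adjusted p = 0.0344). The call of PFKL was lost without morula replicate 2 or early ICM replicates 2 or 3 (adjusted p = 0.0747 to 0.079).

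Of 22 tested lysosome and endocytosis genes 5 rose (22.7%) and none fell. The number that rose was 2 to 5 with 1 library left out, 2 without morula replicate 1, 3 without morula replicate 2 and 3 without early ICM replicate 3. It was 3 with early ICM replicate 3 alone and 1 in the fit of the 6 libraries alone. CTSA, a protective carboxypeptidase, stood at 64.9, 57.7 and 58.4 CPM in the morula and 231, 368 and 192 CPM in the early ICM. For CTSA the log2 fold change was 2.13 ± 0.28 (adjusted p = 0.000375). LGMN, legumain, stood at 352, 411 and 373 CPM in the morula and 1011, 599 and 1113 CPM in the early ICM. LGMN had a log2 fold change of 1.26 ± 0.25 (adjusted p = 0.00572). CTSD, cathepsin D, stood at 162, 287 and 424 CPM in the morula and 1170.1, 825 and 989 CPM in the early ICM. The CTSD log2 fold change was 1.77 ± 0.39 (adjusted p = 0.0123). Early ICM libraries exceeded the morula in all 3, and HEXA and CTSZ rose too (log2 fold change 1.40 ± 0.32, adjusted p = 0.0154 and log2 fold change 0.97 ± 0.27, adjusted p = 0.0419). The call of CTSD was lost without morula replicate 1 (adjusted p = 0.062), that of HEXA without morula replicates 1 or 2 or early ICM replicate 3 (adjusted p = 0.0563 to 0.0614), and that of CTSZ without morula replicates 1 or 2 or early ICM replicates 1, 2 or 3 (adjusted p = 0.0674 to 0.182). Among solute carriers, SLC7A7, an amino acid exchanger, stood at 18.4, 28.6 and 5.13 CPM in the morula and 643, 282 and 149 CPM in the early ICM. For SLC7A7 the log2 fold change was 4.36 ± 0.57 (adjusted p = 0.000314). SLC2A3, the glucose carrier GLUT3, stood at 727, 925 and 462 CPM in the morula and 210.1, 71.7 and 190.2 CPM in the early ICM (log2 fold change -2.16 ± 0.75, adjusted p = 0.0946), with the early ICM below the morula and no call.

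Of 15 tested iron and redox genes 3 rose and 1 fell. HMOX1, haem oxygenase, stood at 2.37, 7.27 and 0.672 CPM in the morula and 191, 1186 and 231 CPM in the early ICM, with early ICM replicate 2 the highest. HMOX1 had a log2 fold change of 7.28 ± 0.98 (adjusted p = 0.000375). PRDX2 and PRDX1, paralogous peroxiredoxins, moved in opposite directions. PRDX2 stood at 46.6, 46.5 and 70.9 CPM in the morula and 228, 337 and 158 CPM in the early ICM. The PRDX2 log2 fold change was 2.14 ± 0.44 (adjusted p = 0.00798). PRDX1 stood at 744, 507 and 511 CPM in the morula and 252, 239 and 297 CPM in the early ICM. For PRDX1 the log2 fold change was -1.16 ± 0.28 (adjusted p = 0.021). The call of PRDX1 was lost without morula replicate 1 or early ICM replicates 1 or 2 (adjusted p = 0.0621 to 0.108). GSTO1 was the third that rose. GSTO1 had a log2 fold change of 1.94 ± 0.45 (adjusted p = 0.0153). The call of GSTO1 was lost without morula replicates 1 or 2 or early ICM replicate 1 (adjusted p = 0.0616 to 0.0793). Of 11 tested immediate early and heat shock genes 2 rose (18.2%, against the same 4.95%). They were HSPB1, a small heat shock protein (log2 fold change 2.62 ± 0.54, adjusted p = 0.00809), and HSPH1. The HSPH1 log2 fold change was 2.11 ± 0.51 (adjusted p = 0.0207). The call of HSPH1 was lost without morula replicate 3 (adjusted p = 0.0642) and without early ICM replicate 3 (adjusted p = 0.103).

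Of 34 tested cell cycle genes 5 rose (14.7%) and 3 fell (8.82%). With 1 library left out 1 to 6 rose and 0 to 3 fell, with 1 risen and none fallen without morula replicate 1 and 1 each way without early ICM replicate 3. CCNE1, the cyclin of S phase entry, stood at 662, 426 and 441 CPM in the morula and 88.9, 186 and 216 CPM in the early ICM. For CCNE1 the log2 fold change was -1.64 ± 0.35 (adjusted p = 0.0101). CCNB1, a mitotic cyclin, stood at 716, 624 and 610.0 CPM in the morula and 325, 299.8 and 297 CPM in the early ICM. CCNB1 had a log2 fold change of -1.08 ± 0.27 (adjusted p = 0.0221). MAD2L1, of the spindle checkpoint, stood at 389, 411 and 306 CPM in the morula and 235, 148 and 181 CPM in the early ICM. The MAD2L1 log2 fold change was -0.97 ± 0.24 (adjusted p = 0.0201). CCND3, a G1 cyclin, stood at 141, 90.5 and 153 CPM in the morula and 335, 411 and 401 CPM in the early ICM. For CCND3 the log2 fold change was 1.58 ± 0.33 (adjusted p = 0.00913). The libraries of the groups did not overlap for any of these. MCM4, MCM5 and MCM7, of the replicative helicase, and TOP2A, a topoisomerase, rose by 0.61 to 1.43 on the log2 scale. Genes named MCM did not all rise. Of 9 tested, picked by symbol after their values were seen, 3 rose (33.3%) and 2 outside the list fell (22.2%). The shares were 4.95% and 2.48% of tested genes with a symbol. The call of CCNE1 was lost without morula replicate 1 (adjusted p = 0.0582), and that of CCND3 without morula replicate 2 (adjusted p = 0.0573). The call of CCNB1 was lost without morula replicates 1 or 2 or early ICM replicates 1, 2 or 3 (adjusted p = 0.0514 to 0.0873), and that of MAD2L1 without morula replicates 1 or 2 or early ICM replicates 2 or 3 (adjusted p = 0.0556 to 0.0748). The call of MCM4 was lost without morula replicate 1 (adjusted p = 0.105) and without early ICM replicate 3 (adjusted p = 0.108), and that of MCM5 without morula replicates 1, 2 or 3 or early ICM replicate 3 (adjusted p = 0.0984 to 0.243). The call of MCM7 was lost without morula replicates 1, 2 or 3 or early ICM replicates 2 or 3 (adjusted p = 0.0992 to 0.193), and that of TOP2A without morula replicates 1 or 3 or early ICM replicate 3 (adjusted p = 0.0946 to 0.105).

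Several lists had few or no calls. Of 43 tested cytosolic ribosomal proteins 1 rose, RPL4, although 37 had a log2 fold change above 0, with a median of 0.41. Of 50 mitochondrial ribosomal proteins 1 rose and 1 fell (2.0% each), and of 23 proteasome genes 2 rose (8.7%). Among tested genes with a symbol the shares were 4.95% higher and 2.48% lower. None of 9 tested DNA methylation genes, 21 chromatin genes, 12 p53 and apoptosis genes or 5 granulosa genes was called; at an unadjusted p under 0.05 there were 1, 3, 3 and 1. DESeq2 called 0, 1, 3 and 1 of them. In the fibroblast list MMP2, a matrix protease, rose, and in the blood and endothelium list PECAM1, an adhesion molecule. MMP2 had a log2 fold change of 5.17 ± 1.25 (adjusted p = 0.0197). The PECAM1 log2 fold change was 1.69 ± 0.41 (adjusted p = 0.0217). The call of MMP2 was lost without morula replicate 1 (adjusted p = 0.0873) and without morula replicate 2 (adjusted p = 0.0729), and that of PECAM1 without morula replicates 1 or 3 or early ICM replicates 1 or 3 (adjusted p = 0.0562 to 0.0906).

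**Figure D5:**
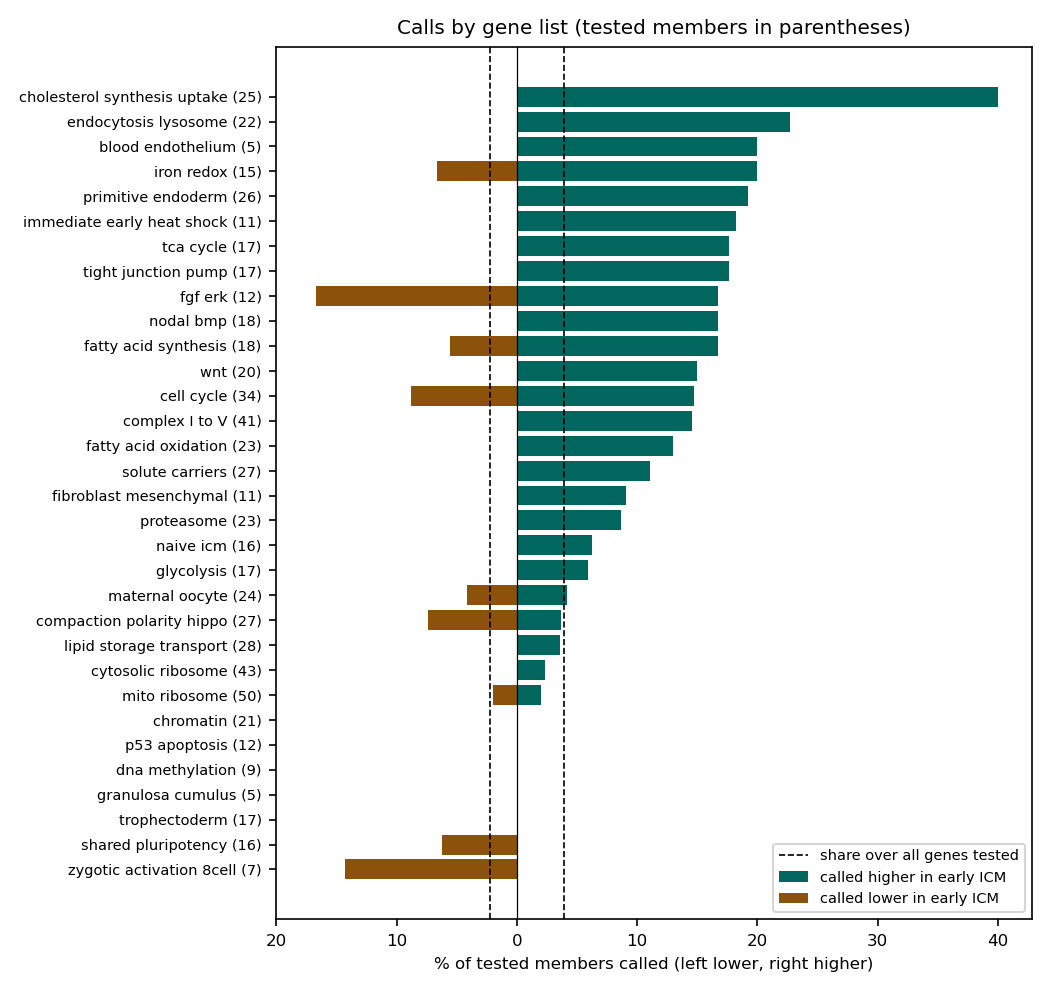
Share of tested members called higher (right) or lower (left) in the early ICM for each gene list, with the number of tested members in parentheses and dashed lines at the shares over all genes tested, 3.89% and 2.27%. The cholesterol list stands at 40% higher, and lists of few genes move by large steps per call.

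Later ICM stages show where the levels of the early ICM went. Against the mean of the 4 later ICM stages, which shares the early ICM libraries with the comparison above, 208 of 16929 genes were higher later (1.23%) and 309 lower (1.83%), 3.05% in all. Without early ICM replicate 3 these counts were 69 and 85, without replicate 2 they were 114 and 140, and without replicate 1 they were 325 and 349. The balance turned with early ICM replicate 3 alone, at 330 higher and 230 lower, and with DESeq2, at 1492 and 668. NLRP7 had a mean of 3564 CPM in the early ICM and 2321, 1581, 1460 and 1035 CPM in the blastocyst, expanded, hatching and hatched ICM, and 35.4 CPM in the epiblast. For NLRP7 the log2 fold change, later minus early, was -1.22 ± 0.23 (adjusted p = 0.0139). KAT7 had 152 CPM in the early ICM, 47.7 to 84.3 CPM in the later ICM and 1207 CPM in the epiblast. KAT7 had a log2 fold change, later minus early, of -1.23 ± 0.24 (adjusted p = 0.017). SPPL3 had 231 CPM and 75.1 to 118 CPM. The SPPL3 log2 fold change, later minus early, was -1.22 ± 0.22 (adjusted p = 0.0127). SERPINH1 continued upward, from 67.4 CPM to 259, 277, 396 and 1246 CPM (log2 fold change later minus early 2.68 ± 0.47, adjusted p = 0.0126), and SOD3 from 30.3 CPM to 68.3 to 185 CPM. For SOD3 the log2 fold change, later minus early, was 1.72 ± 0.45 (adjusted p = 0.0459). Among the 12 largest rises SOD3 was the 1 called in that comparison, and among the 12 largest falls none was. With almost no early ICM counts, some falls could not be called there, with standard errors of 19198 for RHBG and 1966 for ELAVL2. The missing calls therefore do not show that these genes stayed low. CDKL2 went from a mean of 0.0151 CPM to 2.23 to 7.74 CPM in the later ICM, while CCNO and FBLN5 had at most 0.149 CPM. GDF9 stayed at 2.95 to 4.54 CPM in the later ICM and 0.295 CPM in the epiblast. GDF9 had a log2 fold change, later minus early, of 1.52 ± 0.81 (adjusted p = 0.309). The later call of SERPINH1 held in each fit without 1 library. The later call of NLRP7 was lost without early ICM replicate 3 (adjusted p = 0.115), and that of KAT7 without early ICM replicate 3 (adjusted p = 0.09). The later call of SPPL3 was lost without early ICM replicate 2 (adjusted p = 0.0638), and that of SOD3 without early ICM replicate 2 (adjusted p = 0.151) and without early ICM replicate 3 (adjusted p = 0.169).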

How the data were processed

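Per the labels' protocols, RNA came from the RNeasy Mini kit and stranded poly(A)+ libraries from TruSeq reagents. The submitters' processing notes name Trim Galore 0.4.0, STAR 2.5.3a and featureCounts 1.5.2. Genome build and annotation: not given in the sources used here. Raw counts per gene, deposited by the authors for 30811 Ensembl gene IDs in 2 run columns per library, were summed over the runs. Run columns of a library gave a chi-square of 1.93 to 1.99 per gene, and libraries of a group at least 287.6. Even numbers made up 66.6% of counts from 1 to 49 but 50.9% of those from 500 up, so both mates of a pair may have been counted, and intervals and floors, which cover counting error only, are optimistic. The table holds 6 more columns, of 3 libraries outside the series, left unused. Symbols were joined by ID for 12660 IDs (41.1%), and 3 older symbols by hand after the data were seen.

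All 21 embryo libraries were fitted with edgeR 4.0.16 in R 4.3.3 (filterByExpr, TMM, robust quasi-likelihood F test, Benjamini-Hochberg adjustment over all genes). Standard errors are the log2 fold change over the square root of F. The tested genes of a list include some with no count in these 6 libraries, which passed the filter through other stages. The members and lists were chosen with earlier results of these data known. Genes were named by rule: the 12 largest rises and 12 largest falls among called genes with a symbol, without overlap and with 10 CPM or more in the higher group, the 8 largest gains and 8 largest losses in CPM, and list or marker genes. Some of these are left out of the text. Alternatives were DESeq2 1.42.0 size factors, its test, other filters, only the libraries compared, halved counts, a replicate block, no robust dispersion and each library left out.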

Additional observations from a re-analysis of the deposited data

How the results depend on the processing

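Of the 121 named genes that were called, 53 were called in each fit without 1 library, and none changed direction under any setting in which it was fitted. The call was lost by 8 with the size factors of DESeq2, 11 with no low-count filter, 11 with the replicate block, 1 of 120 with the DESeq2 test and 74 of 119 in the fit of the 6 libraries alone. By DESeq2 1326 genes rose, 1432 fell and 2567 were at least 2-fold, so the share of calls that rose went from 63.1% to 48.1%, and the members of the lists that rose or fell numbered 111 and 42. The libraries compared alone gave 114, 99 and 213 genes, with 53.5% of calls higher, and 19 and 4 list members. The cause was not tested. Without 1 library, 349 to 596 genes rose, 164 to 353 fell and 511 to 939 were at least 2-fold, and 35 to 67 and 4 to 10 list members rose and fell. With early ICM replicate 3 alone, a choice made after seeing the data, 533 rose, 409 fell and 939 were at least 2-fold. In the later ICM comparison the counts of 208 higher and 309 lower were 1492 and 668 by DESeq2, 22 and 20 with only the libraries compared, 136 and 186 with the replicate block, 330 and 230 with early ICM replicate 3 alone, and 69 to 325 and 85 to 349 without 1 library. Size factors of DESeq2 moved the median of all genes from 0.05 to 0.10 there and from 0 to -0.016 in the main comparison. With the replicate block in the main comparison 627 rose, 340 fell and 928 were at least 2-fold. Deviations of morula and early ICM libraries of the same number had r of -0.001, -0.075 and 0.021 over genes. For libraries of different number r was -0.09 to 0.11. With 3 libraries per group, these values cannot show whether the replicate numbers pair the libraries. Halved counts gave 697 and 420. Tested on simulated data from these libraries, a 2-fold change was recovered for 1% and a 4-fold change for 28% of 100 genes each. There was 1 false call of 30 over 16167 genes. Only 200 genes were changed there, and with 30 calls against 1042 in the data the adjusted p sets a stricter cutoff. These shares therefore do not give the share of smaller changes missed in the data.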

Other observations

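Some gene families outside the lists above were picked by symbol after their values were seen, so they carry no test of their own and are described by counts alone. Among all tested genes with a symbol 4.95% rose and 2.48% fell, which is the background for each count. Of 11 tested subunits of CCR4-NOT, the complex that shortens poly(A) tails, 3 fell (27.3%) and none rose, and of 8 tested YTH and IGF2BP readers of methylated RNA 4 fell (50%) and none rose. CNOT6L, a deadenylase, stood at 224, 219 and 186 CPM in the morula and 48.8, 12.98 and 28.7 CPM in the early ICM. The CNOT6L log2 fold change was -2.80 ± 0.71 (adjusted p = 0.0259). CNOT8, its partner enzyme, stood at 178, 145 and 126 CPM in the morula and 97.5, 43.3 and 47.2 CPM in the early ICM. For CNOT8 the log2 fold change was -1.26 ± 0.35 (adjusted p = 0.039). IGF2BP1, which stabilizes RNA, stood at 294, 346 and 484 CPM in the morula and 118, 121 and 191 CPM in the early ICM. IGF2BP1 had a log2 fold change of -1.39 ± 0.33 (adjusted p = 0.0172). IGF2BP2 stood at 109, 119 and 70.4 CPM in the morula and 8.22, 17.1 and 25.5 CPM in the early ICM. The IGF2BP2 log2 fold change was -2.56 ± 0.66 (adjusted p = 0.0289). All morula libraries exceeded all early ICM libraries in these genes. The call of CNOT6L was lost without morula replicates 1 or 2 or early ICM replicates 2 or 3 (adjusted p = 0.0587 to 0.0838), and that of CNOT8 without morula replicates 1, 2 or 3 or early ICM replicates 2 or 3 (adjusted p = 0.0508 to 0.131). The call of IGF2BP1 was lost without morula replicate 3 or early ICM replicates 1 or 2 (adjusted p = 0.0629 to 0.0694), and that of IGF2BP2 without morula replicates 1 or 2 or early ICM replicates 1 or 2 (adjusted p = 0.0758 to 0.0932).

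Of 21 tested basement membrane genes 8 rose (38.1%) and none fell, 3 of which are also in the endoderm list. LAMB2, a laminin chain, stood at 30.8, 18.4 and 22.5 CPM in the morula and 105, 83.1 and 91.99 CPM in the early ICM. For LAMB2 the log2 fold change was 1.96 ± 0.43 (adjusted p = 0.0113). HSPG2, perlecan, stood at 38.99, 39.2 and 41.4 CPM in the morula and 192, 119 and 119.7 CPM in the early ICM (log2 fold change 1.85 ± 0.48, adjusted p = 0.0296). The groups were apart, with low spread in the morula and early ICM replicate 1 above the rest of its group. Of 10 tested collagen modifying genes 4 rose (40%). Among them were PLOD3, a lysyl hydroxylase, at 8.42, 9.27 and 7.47 CPM in the morula and 28.96, 73.7 and 60.8 CPM in the early ICM. PLOD3 had a log2 fold change of 2.70 ± 0.52 (adjusted p = 0.00485). CRTAP, of prolyl hydroxylation, stood at 25.5, 37.3 and 39.9 CPM in the morula and 112, 125 and 94.3 CPM in the early ICM. The CRTAP log2 fold change was 1.69 ± 0.31 (adjusted p = 0.00381). The calls of PLOD3 and CRTAP held in each fit without 1 library. The call of LAMB2 was lost without morula replicate 2 (adjusted p = 0.058), and that of HSPG2 without morula replicates 1, 2 or 3 or early ICM replicate 1 (adjusted p = 0.0694 to 0.0972).

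Of 10 tested circadian clock genes 3 fell (30%) and 1 rose (10%). NR1D1, the repressor REV-ERB alpha, stood at 8.12, 6.73 and 5.55 CPM in the morula and 0, 0 and 0.0415 CPM in the early ICM (log2 fold change -8.69 ± 1.21, adjusted p = 0.000486), from 1114 counts in the morula and 2 in the early ICM, a ratio of 476 with a 95% counting interval of 131 to 3940. It returned to a mean of 2.70 to 5.83 CPM in the 4 later ICM stages. For NR1D1 the log2 fold change, later minus early, was 7.96 ± 1.14 (adjusted p = 0.00626). PER1 stood at 10.6, 8.44 and 25.6 CPM in the morula and 0.567, 0.0831 and 2.01 CPM in the early ICM (log2 fold change -4.06 ± 1.02, adjusted p = 0.0249) and had 8.31 to 13.1 CPM in the later ICM. PER1 had a log2 fold change, later minus early, of 3.53 ± 0.92 (adjusted p = 0.0463). Of 19 tested integrins 2 rose and 2 fell (10.5% each): ITGB5 stood at 41.1, 70.9 and 107 CPM in the morula and 8.99, 1.66 and 7.97 CPM in the early ICM. The ITGB5 log2 fold change was -3.56 ± 0.56 (adjusted p = 0.00126). ITGB7 stood at 4.56, 0.409 and 6.83 CPM in the morula and 145, 34.5 and 207 CPM in the early ICM. For ITGB7 the log2 fold change was 5.03 ± 0.92 (adjusted p = 0.00381). Of 30 tested aminoacyl-tRNA synthetases 5 rose (16.7%) and none fell, and of 212 tested ZNF genes 2 rose (0.943%) and 10 fell (4.72%), against 4.95% and 2.48% of tested genes with a symbol. The calls of NR1D1, ITGB5 and ITGB7 held in each fit without 1 library. The call of PER1 was lost without morula replicate 3 or early ICM replicates 1 or 2 (adjusted p = 0.053 to 0.0781). The later call of NR1D1 held in each fit without 1 library. The later call of PER1 was lost without early ICM replicate 1 (adjusted p = 0.107) and without early ICM replicate 2 (adjusted p = 0.105).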
